A study of Rattus norvegicus with 6 samples.

Results

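MicroRNA precursor transcripts were described in cultures of retinal ganglion cells (RGCs), whose axons form the optic nerve. The precursors are the rows of the deposited expression table that carry the biotype ncRNA and a symbol of the form Mir with a number or Mirlet, and whose value lay above 0 in at least 3 of the 6 libraries. Of 454 such rows among 17366 transcripts, 82 met this rule. They were chosen by their measured FPKM, used only as above or not above 0, so that the number of rows detected is a description and not a finding. The rows are hairpins of 62 to 140 bases, with 1 exception: Mir155hg, the 1186-base host transcript of miR-155, matches the naming rule without being a hairpin.

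The cultures came from Sprague Dawley rats labelled P5 and had been kept for 10 days. They were exposed for 12 h to chordin-like 1 (Chrdl1), a secreted antagonist of bone morphogenetic proteins, at 1 µg/ml, or to a vehicle of 0.1% BSA and 4 mM HCl, with 3 libraries in each group. Each vehicle library shares a code in its title with 1 Chrdl1 library, which gives pairs A, B and C; values of 3 libraries follow this order. What the code means is not labelled, nor is it labelled whether separate animals or cultures lie behind the libraries. The p-values therefore rest on a spread that may be technical. The label on RNA extraction names visual cortex and the other labels name RGC culture. Of 9 RGC markers, 8 were listed, and their summed level ran from 2166 to 2593 FPKM. The 6 astrocyte and Müller cell markers summed to 52.1 to 89.8 FPKM, of which Glul, the glutamine synthetase gene, made up 51.5 to 82.5 FPKM. Slc1a3 reached 5.95 FPKM and Gfap 1.24 FPKM, and Rlbp1, Aqp4 and Aldh1l1 were under 1 FPKM in every library.

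MicroRNAs begin as long primary transcripts, many of them polyadenylated, or as introns of other genes. The nuclear enzyme Drosha with its partner Dgcr8 cuts out a hairpin, exportin 5 carries it to the cytoplasm, Dicer trims it to a short duplex, and 1 strand is loaded into an Argonaute protein. The loaded strand recognises messenger RNAs mainly through its seed, bases 2 to 8. The libraries were made with a kit for stranded mRNA, which captures polyadenylated RNA. Reads over a precursor row can therefore come from a longer transcript that crosses the hairpin, and the mature microRNAs were not measured.

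Mature sequences from RefSeq (assembly GRCr8) are given for the precursors on which the results below turn, with the seed in capitals. A RefSeq hairpin was found for 73 of the 82 rows and at least 1 mature sequence for 68, giving 103 mature sequences with 102 distinct seeds. Among these 103 sequences, the 1 seed that 2 members share, GCUGGUG, is that of miR-138-5p, encoded by both Mir138-1 and Mir138-2. Rows without a mature sequence here, Mir106b, Mir212, Mir124-1 and Mir124-2 among them, could not be compared by seed. Shared seeds among all 82 rows may therefore be more. The first lines below are from the precursors with high values, the next from the Meg3 locus and the last from precursors named in the treatment comparison.
miR-678: gUCUCGGGgcaaggacuggagg
miR-6321: uACUGCAGugaguucuaugaagc
miR-3064-3p: uUUGCCACacugcaacaccuuaca
miR-2985: uGUUAUAGuaucccaccuaccc
miR-1306-3p: gACGUUGGcucugguggugaug
miR-671: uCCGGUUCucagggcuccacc
miR-770-5p: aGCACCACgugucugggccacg
miR-431: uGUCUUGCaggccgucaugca
miR-433-3p: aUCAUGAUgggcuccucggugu
miR-127-3p: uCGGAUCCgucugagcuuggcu
miR-136-3p: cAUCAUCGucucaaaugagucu
miR-22-3p: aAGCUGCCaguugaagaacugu
miR-138-5p: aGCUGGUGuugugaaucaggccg
miR-1956-5p: aGUCCAGGgcugagucagcgga

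Most precursor rows held no reads. Of the 454 rows, 315 were at 0 in all 6 libraries, 43 were above 0 in 1 and 14 in 2, and 33 were above 0 in all 6. The 82 described here are 18.1% of the precursor rows. By the same rule 77.7% of the 16776 protein-coding rows and 61.5% of the 109 other noncoding rows were detected. The classes differ in length, with medians of 86, 1857 and 870 bases, and a short row gathers fewer reads at a given level. The part that length has in the difference was not tested.

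The number of reads behind each value was recovered from the deposited values, and it sets how firmly they can be read. FPKM is the number of fragments per kilobase of transcript, scaled to the reads of the library. The libraries held 14546590 (vehicle, pair B) to 26551750 reads (vehicle, pair C), so that a single read on a row of 80 bases amounts to 0.859 FPKM at the lowest depth and 0.471 FPKM at the highest. All 82 rows together took 820, 553 and 871 reads in vehicle libraries and 825, 880 and 871 in the Chrdl1 libraries. Scaled to 1000000 reads, this is 33.5, 38.02 and 32.8 in vehicle and 35.3, 38.5 and 36.0 in Chrdl1 libraries, and the groups overlap. The 10 rows with most reads held 62.9% of the 4820 reads. In contrast, 28 rows had under 10 reads over all libraries, and 11 had at least 10 reads in every library.

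Levels spread widely among the 82 rows. The mean over the 6 libraries was at least 10 FPKM for 13 rows, from 1 to under 10 for 31 and under 1 for 38, with a median of 1.08 FPKM. At the edge of the rule, the 21 rows above 0 in exactly 3 libraries rested on 3 to 10 reads in all, and the 14 rows above 0 in exactly 2 libraries on 2 to 8 reads. Mir207 (3 reads), Mir384 (4) and Mir31 (5) lay just inside. Mir181c (2 reads), Mir9-2 (7) and Mirlet7b (7) lay just outside.

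Mir678 and Mir6321 stood above the other precursors. Mir678, 82 bases on the plus strand of chromosome 20 from 13212428 to 13212510 (rn6), was at 52.3, 59.5 and 61.1 FPKM in vehicle libraries and at 59.6, 47.5 and 50.4 FPKM in the Chrdl1 libraries. It rested on 71 to 133 reads per library. The vehicle value of pair A has a 95% Poisson interval of 42.8 to 63.3 FPKM, which covers counting error only. Mir6321, 140 bases on the minus strand of chromosome 14 from 21097338 to 21097478, was at 49.0, 43.2 and 49.8 FPKM in vehicle and 53.5, 40.6 and 42.2 FPKM in Chrdl1 libraries, from 88 to 185 reads. Both were even across the libraries, with coefficients of variation of 10.4% and 11.02%, and for both the groups overlapped.

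The other 8 of the 10 highest rows had means from 11.1 to 17.9 FPKM. Mir3102 (136 bases) was at 12.3, 25.8 and 11.1 FPKM in vehicle and 19.2, 19.6 and 19.1 FPKM in Chrdl1 libraries. Mir3064 (66 bases) was at 9.90, 16.7 and 15.4 FPKM in vehicle and 20.8, 13.3 and 20.7 FPKM in Chrdl1 libraries. The vehicle library of pair B was the highest of the 6 for Mir3102, and for Mir3064 the Chrdl1 libraries of pairs A and C were the highest. Mir6315 (100 bases) averaged 15.6 FPKM, Mir1896 (80 bases) 13.8 FPKM and Mir6328 (96 bases) 13.5 FPKM, and in each the groups overlapped. Mir770, Mir2985 and Mir1306 are given with their host transcripts. By reads, Mir3550 also belongs to the first 10 (145 reads, mean 9.65 FPKM), while Mir1306 (113 reads) does not. The order within ranks 3 to 10 is not resolved: Mir3102 ran from 11.1 to 25.8 FPKM over the libraries and Mir1306, ranked 10, from 5.74 to 16.7 FPKM.

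**Figure D1:**
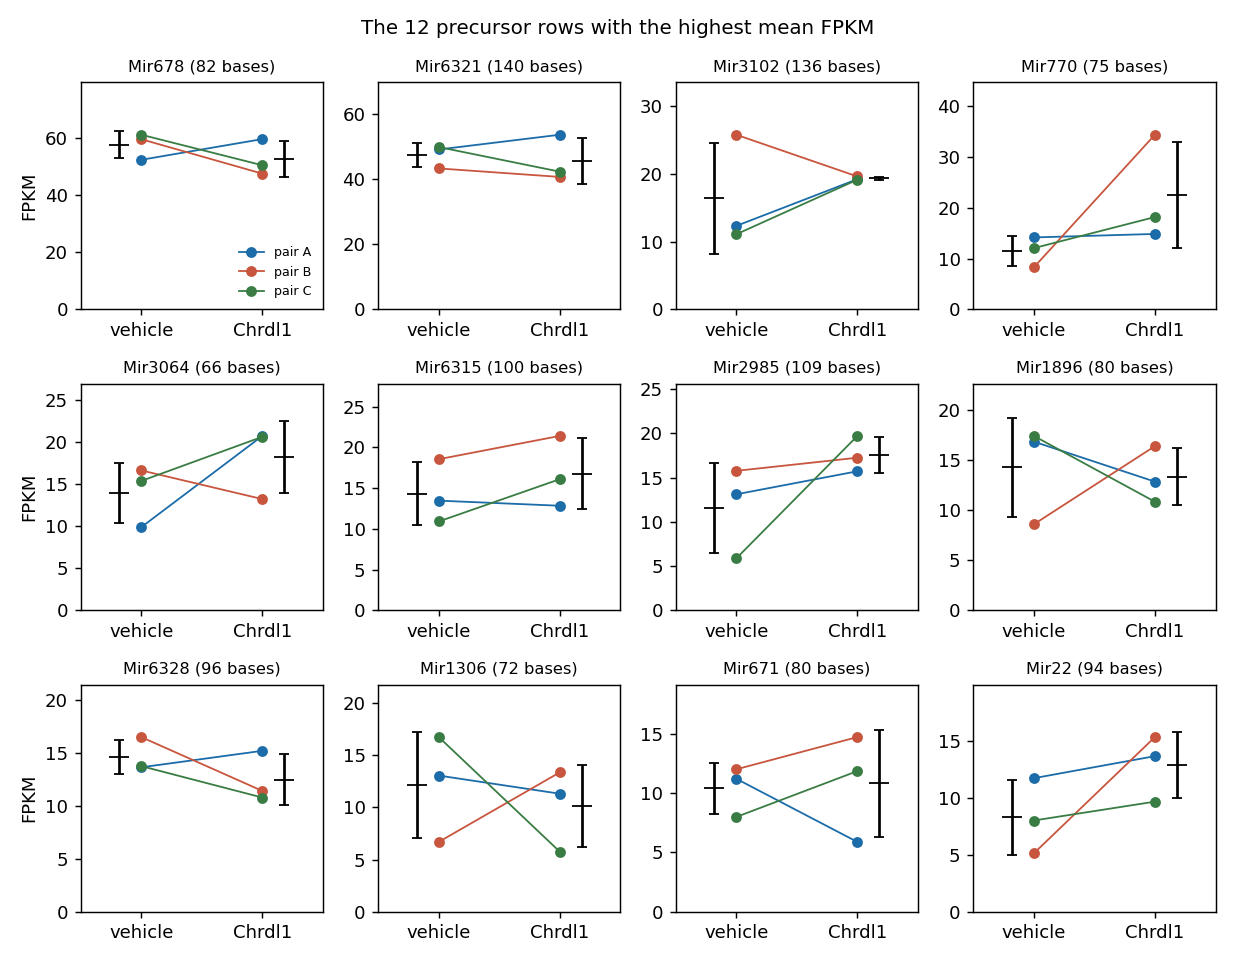
FPKM (vertical axis, from 0, with its own scale in each panel) of the 12 precursor rows with the highest mean, by group; each coloured line connects the vehicle and the Chrdl1 library of a pair, and the black marks give mean and SD over 3 libraries. Mir678 and Mir6321 lie above 40 FPKM in every library, and Mir770 reaches 34.4 FPKM in the Chrdl1 library of pair B.

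Many of the precursors lie inside another listed gene. By the coordinates of the table, 35 of the 82 rows lay within the span of a listed transcript on the same strand, 5 within one on the opposite strand only and 41 within none; the remaining row is Mir155hg. Exon and intron positions were not analysed here. The 35 rows formed 36 pairs with 34 hosts, since Mir149 lies within both Gpc1 and Ppp1r7 and 3 rows lie within Mcm7. The mean FPKM of the precursor was under 10% of that of its host in 15 pairs, 10% to under 50% in 14 and at least 50% in 7, with a median of 15.1%. FPKM is per length, so these are ratios of levels.

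Several of the highest rows were close to the level of their host. Mir1306 lies within Dgcr8, which encodes the RNA-binding partner of Drosha. It was at 13.0, 6.68 and 16.7 FPKM in vehicle and 11.3, 13.4 and 5.74 FPKM in Chrdl1 libraries, while Dgcr8 was at 9.07, 9.81 and 10.8 FPKM and at 9.56, 10.4 and 10.3 FPKM. The precursor thus had 112% of the host's mean, and from 55.5% to 155% in single libraries, with 113 reads in all. Mir678 had 91.4% of Prmt2, an arginine methyltransferase gene (mean 60.3 FPKM), with 74.5% to 103% in single libraries. Mir671 had 93.7% of Chpf2, a chondroitin synthesis gene (mean 11.4 FPKM). Mir1224 had 58.8% of Vwa5b2 (mean 10.9 FPKM).

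Mir2985 lies within Gria2, which encodes the GluA2 subunit of AMPA receptors. It was at 13.1, 15.8 and 5.87 FPKM in vehicle and 15.7, 17.2 and 19.7 FPKM in Chrdl1 libraries. The host was at 13.1, 18.8 and 12.5 FPKM and at 14.1, 19.2 and 15.7 FPKM in the same order. The row had 93.8% of the mean of Gria2, with the lowest ratio, 47.1%, in the vehicle library of pair C and the highest, 126%, in the Chrdl1 library of that pair.

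Other precursors lay far below their host. Mir6321 had 36.5% of Rufy3 (mean 127 FPKM), a gene of neuronal polarity. Mir3064 had 8.57% of Ddx5, an RNA helicase that takes part in microRNA processing (mean 188 FPKM), and Mir7a-1 had 2.57% of Hnrnpk (mean 27.4 FPKM). Mir218-1, whose microRNA is abundant in motor neurons, had 3.59% of the guidance cue gene Slit2 (mean 13.2 FPKM) from 6 reads. The lowest ratios were 0.248% for Mir3568 in Mgrn1 (mean 114 FPKM) and 0.154% for Mir207 in Dnaja1 (mean 176 FPKM), from 4 and 3 reads. The highest ratio, 180% for Mir147 in a gene named C3h15orf48 in RefSeq, rests on 8 reads and a host mean of 0.396 FPKM. Mir106b, Mir93 and Mir25, a cluster within the replication helicase gene Mcm7, had 27.2%, 16.3% and 12.1% of its 4.31 FPKM. Mir675, in the imprinted noncoding RNA H19, and Mir421, in the noncoding RNA Ftx, had means of 0.774 and 0.537 FPKM beside 1.10 and 2.41 FPKM in their hosts.

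The remaining same-strand pairs ran from 1.12% (Mir628 in Ccpg1) to 45.9% (Mir935 in Cacng8, a gene of AMPA receptor auxiliary subunits). With the host on the opposite strand, Mir6328 had 88.8% of Ppp1r18 (13.5 and 15.2 FPKM) and Mir762 had 43.9% of Bcl7c (4.73 and 10.8 FPKM). The library kit keeps the strand, but the strand setting of the counting is not given in the sources used here, so reads of the 2 strands cannot be told apart for these rows.

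**Figure D2:**
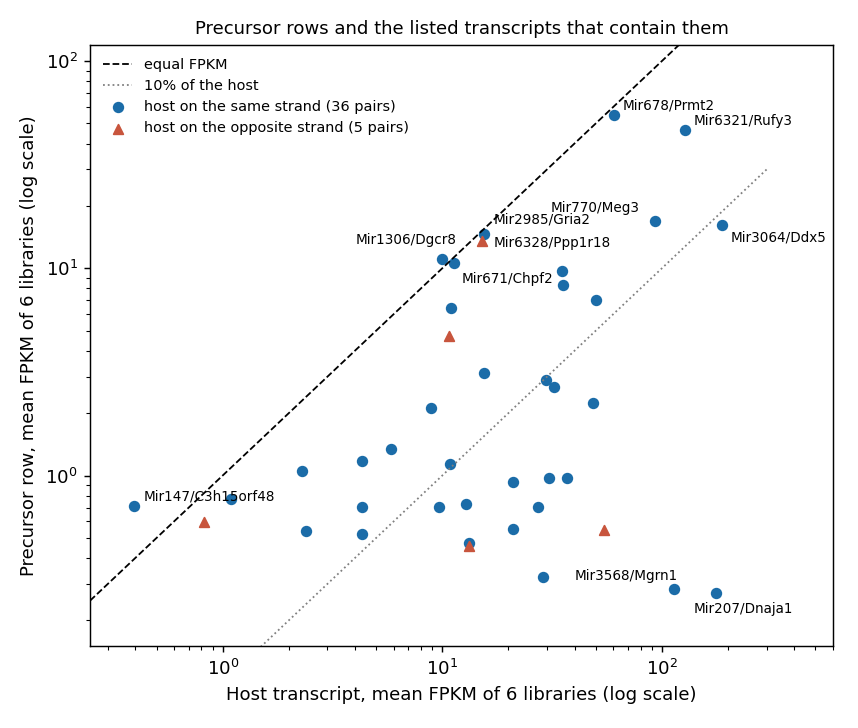
Mean FPKM of 6 libraries of a precursor row (vertical axis, log scale) and of the listed transcript that contains it (horizontal axis, log scale), for 36 same-strand pairs (circles) and 5 opposite-strand pairs (triangles). Mir1306, Mir2985, Mir671 and Mir678 lie near the dashed line of equal FPKM, and 15 same-strand pairs lie below the dotted line at 10%.

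For the imprinted Dlk1-Dio3 locus on chromosome 6, 36 rows carried a name of its list of microRNAs. Of these, 7 were members, where 18.1% of all 454 precursor rows were. These 7 took 559 of the 4820 reads, 177 of them on Mir770. The list does not hold every row of the locus, and the window by coordinates described next held 11 members. The maternally expressed noncoding RNA of the locus, Meg3 (listed as RGD1566401), contains Mir770. Within 250 kb of the start of Mir770 lay 58 precursor rows, 49 of them on the plus strand, the strand of Meg3, and 36 of the 58 were at 0 in every library. Members were spread unevenly along the 215.8 kb that these rows span. Of the 11 plus-strand rows within 40 kb of Mir770, 5 were members, namely Mir770, Mir431, Mir433, Mir127 and Mir136. Of the 38 rows beyond 40 kb, 5 were members, namely Mir341, Mir1188, Mir369, Mir410 and Mir3072. The highest mean beyond 40 kb was 2.95 FPKM, that of Mir410.

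Mir770 (75 bases, chromosome 6 from 133682965 to 133683040) was at 14.2, 8.25 and 12.1 FPKM in vehicle libraries and at 14.9, 34.4 and 18.2 FPKM in the Chrdl1 libraries. These rest on 26, 9, 24, 26, 59 and 33 reads. Every Chrdl1 library lay above every vehicle library, and the Chrdl1 library of pair B lay far above the other 2. Meg3 was at 49.8, 94.9 and 88.4 FPKM in vehicle and at 37.7, 191 and 98.8 FPKM in Chrdl1 libraries. The host was thus lower with Chrdl1 in pair A and higher in pairs B and C, with a log2 fold change of 0.26 ± 0.56 (SE; limma adjusted p = 0.9998). With the title code also in the fit the SE was 0.17 (limma adjusted p = 0.88). Mir770 held 8.70% to 39.4% of the level of Meg3 in single libraries.

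The 4 precursors downstream, from 28.5 to 33.8 kb after Mir770, form a cluster of 5417 bases. Mir127 had the highest mean of the 4, with 13.2, 12.2 and 5.10 FPKM in vehicle and 10.3, 12.3 and 8.18 FPKM in Chrdl1 libraries. Mir136 was at 7.06, 5.94 and 1.86 FPKM in vehicle and 10.0, 5.40 and 9.18 FPKM in Chrdl1 libraries. For each of the 4 the lowest of the 6 libraries was the vehicle library of pair C, which had 1.33 FPKM of Mir431 and 2.46 FPKM of Mir433. Without Mir770, the plus-strand rows of the locus took 77, 63 and 55 reads in vehicle and 80, 98 and 69 in Chrdl1 libraries. These read numbers are not scaled to library size. In pair B the vehicle library held 14546590 reads and the Chrdl1 library 22870490, so that 63 and 98 reads do not show a rise. In pairs A and C the Chrdl1 library was the smaller of the pair and had more reads on these rows. Farther along, Mir410 was at 1.63, 4.58 and 4.02 FPKM in vehicle and at 2.29, 4.08 and 1.10 FPKM in Chrdl1 libraries. Mir369 had 7.05 FPKM in the vehicle library of pair B and at most 0.549 FPKM in any other.

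**Figure D3:**
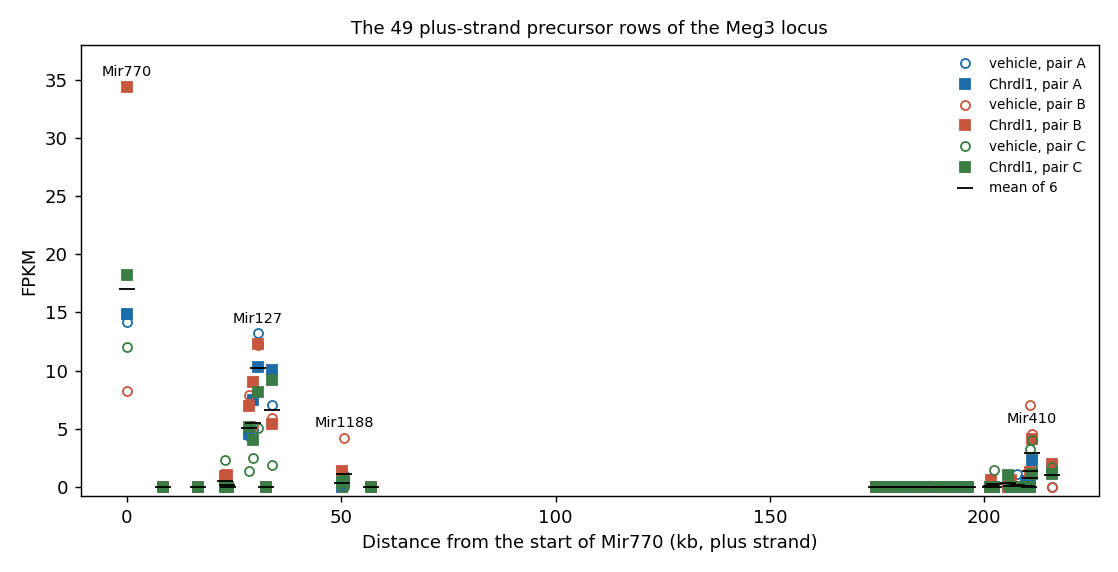
FPKM (vertical axis) of the 49 plus-strand precursor rows against their distance from the start of Mir770 in kb (horizontal axis); open circles are vehicle and filled squares Chrdl1 libraries, coloured by pair, and dashes are means of 6 libraries. Means above 5 FPKM occur within 40 kb of Mir770, and the rows beyond that distance have means up to 2.95 FPKM.

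The other clusters, with neighbours at most 10 kb apart on 1 strand, also had members with unequal levels. Mir22, whose microRNA is widely expressed, was at 10.6 FPKM on average, and Mir6326, in the same cluster of 347 bases, at 0.606 FPKM. Mir132 and Mir212, which arise from 1 activity-regulated transcript in neurons, had means of 1.04 and 0.749 FPKM. Mir132 had no reads in the vehicle libraries of pairs A and B and reached 3.06 FPKM in the Chrdl1 library of pair B. Mir24-1, Mir23b and Mir27b, which span 813 bases on chromosome 17, had means of 2.11, 1.11 and 0.653 FPKM. The Mcm7 cluster, the pair Mir341 and Mir1188, and the group of Mir369, Mir410 and Mir3072 are given with their hosts and locus.

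Some rows lie on top of another precursor on the opposite strand, and their reads were not independent. The table lists 43 such pairs, 12 of them with reads. In 32 library values with reads on either strand, 21 had the same number of reads on both strands. Of the 5 pairs in which both rows are members, 3 had equal reads in all 6 libraries: Mirlet7d with Mir3596b (8 reads each), Mir218-1 with Mir3565 (6 each) and Mir31 with Mir3554 (5 each). Mir31 and Mir3554 are shown because their RefSeq hairpins are reverse complements of each other over 106 bases. Both rows held 3 reads in the vehicle library of pair A. The line of Mir31 is its whole hairpin, and that of Mir3554 is only the complementary 106 bases of a hairpin of 118.
Mir31: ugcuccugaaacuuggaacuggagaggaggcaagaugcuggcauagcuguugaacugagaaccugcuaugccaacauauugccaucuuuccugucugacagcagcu
Mir3554: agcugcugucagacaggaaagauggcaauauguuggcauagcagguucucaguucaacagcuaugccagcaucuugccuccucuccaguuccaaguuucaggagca
Members of such pairs cannot be told apart by their values. Mir24-1 and the longer Mir3074 differed, with 19 and 39 reads in all, as did Mir369 and Mir3578, with 10 and 11.

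Groups of microRNAs known from neurons and from other cells were mostly at or near 0. The same holds for all 454 precursor rows, of which 18.1% were members. Of 24 rows with names of the neuronal list, 8 were members, with 96 reads in all: Mir138-2, Mir124-1, Mir132, Mir124-2, Mir212, Mir7a-1, Mir218-1 and Mir138-1. These 8 took 6, 4 and 24 reads in vehicle and 6, 27 and 29 in Chrdl1 libraries, so that pair A was low in both groups, pair C high in both and pair B split. Mir124-1, a precursor of the microRNA typical of neurons, was at 0, 0 and 1.79 FPKM in vehicle and 0.510, 0.521 and 4.92 FPKM in Chrdl1 libraries. Mir124-2 was at 0, 0 and 0.697 FPKM and at 0.793, 2.02 and 1.53 FPKM. In vehicle both had reads in pair C alone.

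Among other lists, 1 of 11 retinal sensory rows was a member (Mir181d, 8 reads) and 1 of 12 rows of the let-7 family (Mirlet7d). In the list of the Mir17 family and clusters, 3 of 14 rows were members: Mir106b, Mir93 and Mir25. Of 10 rows of mural, endothelial and muscle microRNAs, 0 were members, with 1 read in all libraries. The 5 mural, fibroblast and endothelial markers summed to 12.4, 5.86 and 24.4 FPKM in vehicle and 12.1, 3.24 and 23.9 FPKM in Chrdl1 libraries. Col1a2, Pecam1 and Cldn5 among them were under 1 FPKM everywhere. Of 7 haematopoietic and myeloid rows, 2 were members, Mir21 and Mir223. Mir223, a myeloid precursor, was at 1.12, 0 and 2.76 FPKM in vehicle and 0, 0.401 and 2.28 FPKM in Chrdl1 libraries. The 7 microglial markers summed to 170, 18.7 and 210 FPKM in vehicle and 142, 10.4 and 189 FPKM in Chrdl1 libraries, with Cx3cr1 under 1 FPKM everywhere. Pair B was thus lowest in the markers. For Mir223 the means of pairs A, B and C were 0.56, 0.20 and 2.52 FPKM, also lowest in pair B, which had 0 and 1 reads. Within the Chrdl1 libraries alone, Mir223 was lowest in pair A. The 4 photoreceptor markers summed to 48.5 FPKM in both libraries of pair C and to at most 5.28 FPKM elsewhere. Their part in the precursor values was not tested. In such bulk samples fewer cells of a type and less RNA per cell cannot be told apart.

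Libraries of both groups were compared to ask whether 12 h of Chrdl1 alters transcript levels in RGCs. No precursor passed the test. Limma on log2(FPKM + 1) covered the 10390 transcripts with at least 1 FPKM in at least 3 libraries, 44 precursors among them, and called 0 transcripts (0%) and 0 precursors at an adjusted p under 0.05. The smallest limma adjusted p was 0.9998. At an unadjusted p under 0.05 there were 3 of the 44 precursors, Mir138-2, Mir106b and Mir770, beside 18 of all transcripts (0.173%). With the title code as a replicate block limma again called 0 transcripts and 0 precursors, with a smallest adjusted p of 0.165 (Mir138-2). An unadjusted p under 0.05 was then reached by 17 precursors, 11 higher and 6 lower with Chrdl1, beside 535 of all transcripts (5.15%). These counts differed with the method. Voom, which weights values by their read number, gave 0 precursors beside 5 of all transcripts at that threshold without the block. Using the block, voom gave 5 of the 44 precursors beside 630 of all 10390 transcripts.

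The fold changes of the precursors were spread on both sides of 0. Of the 44, 24 had a positive and 20 a negative log2 fold change, Chrdl1 minus vehicle, with a median of 0.11, beside -0.028 over all tested transcripts. In all, 9 were higher with Chrdl1 in all 3 pairs, where 7.55% of all tested transcripts were, and 5 were lower in all 3, where 19.5% were. The groups of 3 libraries did not overlap for 3 of the 44, beside 2.44% of all tested transcripts. The 3 are again Mir770, Mir138-2 and Mir106b. Among all 82 rows the groups did not overlap for 7, beside 3.16% of transcripts above 0 in 3 libraries. Mir138-1 is among them, and it met the rule through the 3 Chrdl1 libraries alone, so its separation was fixed by the choice of rows. The others are Mir124-2, Mirlet7d and Mir3596b, the last 2 sharing their reads.

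The precursors rested on fewer reads than most tested transcripts, and the size of the fold changes is given beside the read number. The median absolute log2 fold change was 0.35 for the precursors and 0.067 for all tested transcripts. The median half-width of the 95% interval was 0.81 and 0.37, and with the replicate block 0.37 and 0.19. Among transcripts with 60 to under 200 reads over the 6 libraries, the median absolute change was 0.34 for 15 precursors and 0.14 for 128 others. With 200 to under 1000 reads it was 0.22 for 5 precursors and 0.096 for 1610 others. With 20 to under 60 reads it was 0.26 for 10 precursors and 0.22 for 3 others. The 14 precursors under 20 reads had 0.53, and no other transcript with so few reads was tested. Among the precursors the change did not fall steadily from class to class. These classes were formed after the data were seen, and the precursors are shorter than the others, so a given number of reads is a higher FPKM for them.

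**Figure D4:**
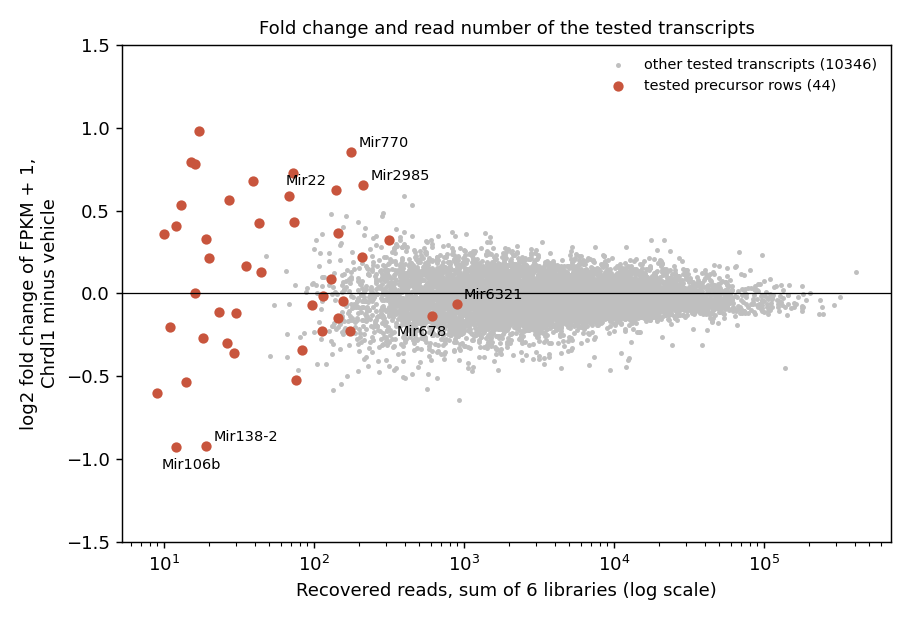
Log2 fold change of FPKM + 1, Chrdl1 minus vehicle (vertical axis), against the recovered reads summed over 6 libraries (horizontal axis, log scale), for 44 precursor rows (large points) and the other tested transcripts (small points). The precursors lie at the low end of read numbers, and Mir678 and Mir6321 lie near 0.

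Among the precursors higher with Chrdl1 in all 3 pairs, Mir770, Mir22 and Mir2985 had the smallest unadjusted p. Mir770 averaged 11.5 ± 2.996 FPKM in vehicle and 22.5 ± 10.5 FPKM in Chrdl1 libraries (SD, n = 3 each). Its log2 fold change was 0.85 ± 0.32 (SE; limma adjusted p = 0.9998). It fell to 0.51 without the Chrdl1 library of pair B and to 0.31 without both libraries of pair B. Mir22 was at 11.7, 5.12 and 8.01 FPKM in vehicle and 13.7, 15.4 and 9.67 FPKM in Chrdl1 libraries, from 7 to 33 reads. Its groups overlap, since the Chrdl1 library of pair C lies below the vehicle library of pair A, and its log2 fold change was 0.62 ± 0.29 (limma adjusted p = 0.9998), or 0.35 without the vehicle library of pair B. Mir2985, whose values are given with Gria2, had 0.65 ± 0.32, or 0.27 without the vehicle library of pair C, which was its lowest. Gria2 itself had 0.15 ± 0.18 (limma adjusted p = 0.9998 for both).

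Among those lower in all 3 pairs, Mir138-2, Mir106b and Mir1956 had the smallest unadjusted p, all from few reads. Mir138-2, a precursor of the neuronal miR-138-5p whose seed is printed above, was at 2.52, 1.70 and 3.26 FPKM in vehicle and 0.529, 0.540 and 1.53 FPKM in Chrdl1 libraries. These are 5, 2 and 7 reads and 1, 1 and 3 reads. The groups do not overlap, although the 95% Poisson intervals of single libraries do: 0.819 to 5.88 FPKM in the vehicle library of pair A and 0.0134 to 2.95 FPKM in the Chrdl1 library. Its log2 fold change was -0.92 ± 0.28, with 1 direction when any library was left out. Mir138-1, which encodes the same mature miR-138-5p, had no reads in vehicle and 1, 3 and 1 reads in Chrdl1 libraries. A count of 0 allows up to 1.250, 2.10 and 1.15 FPKM in the 3 vehicle libraries, and the highest Chrdl1 value was 1.34 FPKM.

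Mir106b, of the Mir17 family, had 3 reads in each vehicle library and 2, 0 and 1 reads in the Chrdl1 libraries of pairs A, B and C. As levels these were 1.51, 2.55 and 1.40 FPKM and 1.06, 0 and 0.510 FPKM, where the 0 allows up to 1.62 FPKM. The log2 fold change was -0.93 ± 0.31 (limma adjusted p = 0.9998). Its host Mcm7 had -0.0079 ± 0.15 from 1366 reads. Mir1956 had 9 reads in all and a log2 fold change of -0.60 ± 0.34, with overlapping groups. The most deeply covered precursors had the tightest estimates: -0.14 ± 0.11 for Mir678 and -0.065 ± 0.13 for Mir6321. The 95% interval of Mir678 ran from -0.41 to 0.14 and that of Mir6321 from -0.37 to 0.24. With the title code as a replicate block they ran from -0.33 to 0.056 and from -0.23 to 0.097.

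More precursors passed the test between title codes than the test between treatments. The limma F test of the 3 codes called 24 of the 44 precursors, 54.5%, beside 4930 of all tested transcripts (47.4%). The codes took up 48.2% of the variance of the precursors and treatment 20.01%, beside 88.9% and 3.91% over all tested transcripts. The rest was 31.8% and 7.16%. In 6 libraries noise alone gives codes and treatment a share each, and the shares were not corrected for this. The 20.01% is therefore not a measure of a treatment effect on the precursors, nor the 48.2% of a code effect on them. The count differed with the method. With voom, which weights values by their read number, 3 precursors were called, Mir223, Mir3541 and Mir7a-1, beside 5660 of all tested transcripts (54.5%). With an FPKM of at least 5 required in 3 libraries, 20 precursors were tested and 7 of them were called, beside 3793 of 7973 transcripts (47.6%). The 7 were Mir1224, Mir127, Mir3102, Mir431, Mir433, Mir6315 and Mir877.

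The members called with that floor include rows with more reads, but voom called 0 members with 20 or more reads. All 3 of its calls had under 20 reads over the 6 libraries. With the FPKM floor of 1, limma called 9 of 14 members under 20 reads and 8 of 10 with 20 to under 60. It called 5 of 15 members with 60 to under 200 reads and 2 of 5 with 200 to under 1000. Mir6315, with 207 reads, averaged 13.2, 19.99 and 13.5 FPKM in the 3 pairs in order, and was highest in pair B in both groups (code adjusted p = 0.00359, limma). Mir877, with 97 reads, averaged 7.97, 6.14 and 10.8 FPKM and was highest in pair C in both groups (limma code adjusted p = 0.000895). Mir431 averaged 4.44, 7.44 and 3.23 FPKM, and Mir433 6.17, 7.13 and 3.25 FPKM, with pair B highest. Under the FPKM of 1 floor, the code test also called rows of few reads. These were Mir3561 (35 reads; limma adjusted p = 4.78e-05), Mir5132 (27 reads), Mir3541 (17), Mir223 (18) and Mir7a-1 (10). Mir7a-1 had no reads in pair A in either group. Of the other called members, Mir138-2, Mir1956, Mir21, Mir24-1, Mir3074, Mir186, Mir331, Mir343, Mir1199, Mir3572, Mir410 and Mir935 had 9 to 44 reads.

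Genes of microRNA processing and silencing were expressed and did not pass the treatment test. Of 32 names, 27 were in the table and 25 were tested; limma called 0, with 15 positive and 10 negative log2 fold changes and a median of 0.030. At an unadjusted p under 0.05 there were 0 of the 25 without the replicate block, beside 0.173% of all tested transcripts, and 1 of the 25 with it, beside 5.15%. Drosha, the nuclear nuclease, was at 17.8, 19.8 and 21.5 FPKM in vehicle and 17.2, 25.3 and 21.4 FPKM in Chrdl1 libraries. Dgcr8 had means of 9.89 ± 0.857 and 10.1 ± 0.463 FPKM (SD, n = 3 each), and Xpo5, which encodes exportin 5, at 17.1 ± 0.952 and 16.4 ± 0.382 FPKM. Ago2, the Argonaute protein with slicing activity, was at 12.9 ± 4.63 and 13.2 ± 1.25 FPKM. Lin28a, an inhibitor of let-7 maturation, was at 0.147 and 0.134 FPKM on average. Dicer1 was not analysed here. Between title codes limma called 5 of the 25, Drosha among them (adjusted p = 0.0342), beside the 47.4% of all tested transcripts.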

How the data were processed

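Stranded mRNA libraries were made from RNA of RGC cultures, per the labels. FastQC, STAR 2.4.0k, HOMER 4.8.3 and genome build rn6 are named in the submitters' processing notes. Not given in the sources used here are annotation release, read filters and strand setting. The authors deposited 1 table of FPKM values with transcript lengths. Read numbers were recovered from FPKM times length: 99.6% to 99.9% of values above 0 were whole within 0.0005 FPKM, where 3.74% to 6.75% would be by chance. The totals came to 24482340, 14546590 and 26551750 (vehicle A, B, C) and 23343390, 22870490 and 24198680 reads (Chrdl1). Limma 3.58.1 in R 4.3.3 (trended eBayes, two-sided, treatment only) tested log2(FPKM + 1) where 3 or more libraries had an FPKM of 1 or more, with Benjamini-Hochberg adjustment over all of them. The script was tested on simulated data. An F test compared the title codes with treatment in the fit. All 82 accessions were found in the RefSeq gene table, used for names. Coordinates are those of the table. Its lengths are 1 base shorter than the RefSeq hairpins for all 73 matched.

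Deviations from the group means correlated at 0.82, 0.86 and 0.84 between libraries of 1 title code and at most at -0.22 otherwise. Taking out the group means itself lowers the correlations between different codes, so these add no support. On the same-code values the codes were taken to pair the libraries. Named precursors are the 10 highest by mean FPKM and by reads, those called in a test, the 3 higher and 3 lower ones of smallest unadjusted p whose pairs all had 1 direction, cluster members, those within a same-strand host and rows at the edge of the detection rule. Members and lists were chosen with earlier results of these data known. Alternatives were the pseudocount, the filter, quantile normalization, voom on recovered reads, the replicate block and leaving out libraries; leaving out both libraries of a pair was chosen after seeing the data.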

Additional observations from a re-analysis of the deposited data

How the results depend on the processing

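The replicate block left the calls at 0 transcripts and 0 precursors. With voom on recovered reads and the replicate block, 2 transcripts and 0 precursors were called. On 2 pairs with the replicate block, 25 transcripts and 9 precursors were called without pair A and 34 and 15 without pair B, with Mir136, Mir138-2, Mir2985 and Mir3541 in both; without pair C 0 were. These fits have 1 residual degree of freedom per row. Leaving out 1 library in turn, 0 transcripts, 0 precursors and 0 processing genes were called for treatment, and the median log2 fold change of the precursors ran from 0.026 to 0.28, the highest without the Chrdl1 library of pair A. For title codes, leaving out 1 library gave 3148 to 5581 transcripts and 28 to 41 precursors. Beside the 24 of 44 precursors of the report, the FPKM floor of 5 gave 7 of 20, voom 3, quantile normalization 18, pseudocounts of 0.1 and 5 gave 21 and 26, and no floor gave 33 of 82. Leaving out 1 library, Mir6321 ran from -0.19 to 0.0092, turning without the Chrdl1 library of pair B, and it turned to 0.019 without pair C, with or without the block. The causes were not tested. Requiring a value above 0 in all 6 libraries leaves 33 rows, and in at least 1 gives 139. The pseudocount, no floor, FPKM of at least 5, quantile normalization and voom without the block called 0 for treatment. Depth limits most rows: 20 of 82 rest on at least 60 reads in all libraries together.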
